A study of Mus musculus with 6 samples.

Results

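The genes described here encode the cell-surface receptors through which microglia, the resident macrophages of the brain, sense interleukins and interferons. They were taken by symbol from the deposited table: every gene named Il, a number and r, without the interleukin 1 receptor group, together with Il6st, Ifnar1, Ifnar2, Ifngr1 and Ifngr2. This gave 38 genes of 55304 in the table, 28 of which reached a mean of more than 1 normalised read and were tested. RNA was sequenced from microglia sorted from C57BL/6 mouse brain by CD45 and CD11b. The mice were adults of 4 to 5 weeks. Mice labelled WT (n = 3 libraries) had the genotype QKIfl/fl, in which both copies of the Qk gene carry loxP sites, and no Cre. Mice labelled KO (n = 3 libraries) had the genotype QKIflfl; Cx3cr1cre-ert2, with a tamoxifen-dependent Cre expressed in Cx3cr1-positive cells such as microglia and other mononuclear phagocytes. The groups therefore share the loxP alleles and differ both in the Cre and in the QKI deficiency it is meant to cause. QKI is an RNA-binding protein of splicing and mRNA stability. The labels give no tamoxifen treatment and do not name the animal behind each library, so every p-value refers to library-to-library spread, which may be technical.

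Most of these receptors have no enzyme activity of their own. A ligand brings a ligand-binding chain together with a shared signalling chain, and Janus kinases bound to the chains phosphorylate STAT transcription factors. A few shared chains serve several ligands each. The common gamma chain (Il2rg) serves IL-2, IL-4, IL-7, IL-9, IL-15 and IL-21. For IL-6, IL-11, IL-27, leukaemia inhibitory factor and oncostatin M the shared chain is gp130 (Il6st). IL-10Rb serves some members of the IL-10 family, among them IL-10 and IL-22, and the common beta chain (Csf2rb) serves IL-3, IL-5 and GM-CSF. In microglia, IL-10 restrains inflammatory activation, whereas interferon gamma and type I interferon induce antiviral and antigen-presentation genes. The IL-17 and IL-18 receptors signal instead through adaptor proteins to NF-kB.

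The libraries held 56988261 to 77199936 recovered reads, and the deposited values were scaled to a total of 34360040 to 34360054 normalised reads each. Where no read was counted, counting error alone allows up to 3 reads, which is 1.34 to 1.81 normalised reads depending on the library. Qk itself was higher in the libraries labelled KO, 24768 ± 1073 against 11632 ± 800 normalised reads (SD, n = 3 each), so these libraries are called by their label throughout. The table gives 1 value per gene and reads per exon were not analysed here. Cx3cr1, named in the Cre genotype of the KO mice and counted among the microglial markers below, was 4.22-fold lower. The part of the Cre allele in this fall was not tested. Of 10 microglial markers all were measured in every library, and 7 fell, with a summed level of 1625811 to 1658169 in WT and 859067 to 972425 in KO. Markers of other cells also differed: 9 of 11 tested neutrophil markers fell (summed level 1899 to 16982 in WT, highest in library WT C, and 64.1 to 124 in KO), while 4 of 8 markers of border-associated macrophages rose (1143 to 1813 and 2138 to 3589). Of 8 monocyte markers 4 fell, Ly6c2, Ccr2, Fn1 and Chil3, and 1 rose, Ms4a4c, by 9.60-fold, with a summed level of 585 to 1776 in WT and 666 to 787 in KO. Markers of neurons, astrocytes, oligodendrocytes, endothelial cells and pericytes fell in 7 of 7, 6 of 7, 3 of 6, 5 of 7 and 6 of 6. All these counts come from the test described below, by which 23.4% of all tested genes were lower and 11.3% higher. With TMM factors (trimmed mean of M-values, another scaling) 6 microglial markers were lower and 1 higher, and the endothelial and pericyte counts were 3 and 5. By that scaling 15.0% of all tested genes were lower and 15.4% higher. In bulk RNA, fewer cells of a type and less RNA per cell cannot be told apart.

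Receptor genes changed in both directions. Of the 28 tested, 9 rose and 7 fell in KO at an adjusted p under 0.05 (limma on log2 of value + 1). This was 57.1% of the members, where 34.6% of all 22472 tested genes were called. The share called higher was 32.1% (11.3% of all genes) and the share called lower 25.0% (23.4% of all genes). Among genes with a mean above 10, 14 of 22 members (63.6%) and 45.5% of all genes were called. The median log2 fold change was -0.01 over the members and -0.15 over all tested genes. With TMM factors, which move the median of all genes to -0.02, 17 members were called, beside 30.4% of all genes. Of these 10 were higher (15.4% of all genes) and 7 lower (15.0%), the addition being Il10rb. edgeR on the recovered reads also called 17, beside 29.9%. The groups did not overlap for 16 members (57.1%) and for 47.9% of all genes. Restricted to changes of 1 log2 unit or more, 8 members remained, 3 higher and 5 lower, beside 13.1% of all genes.

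**Figure D1:**
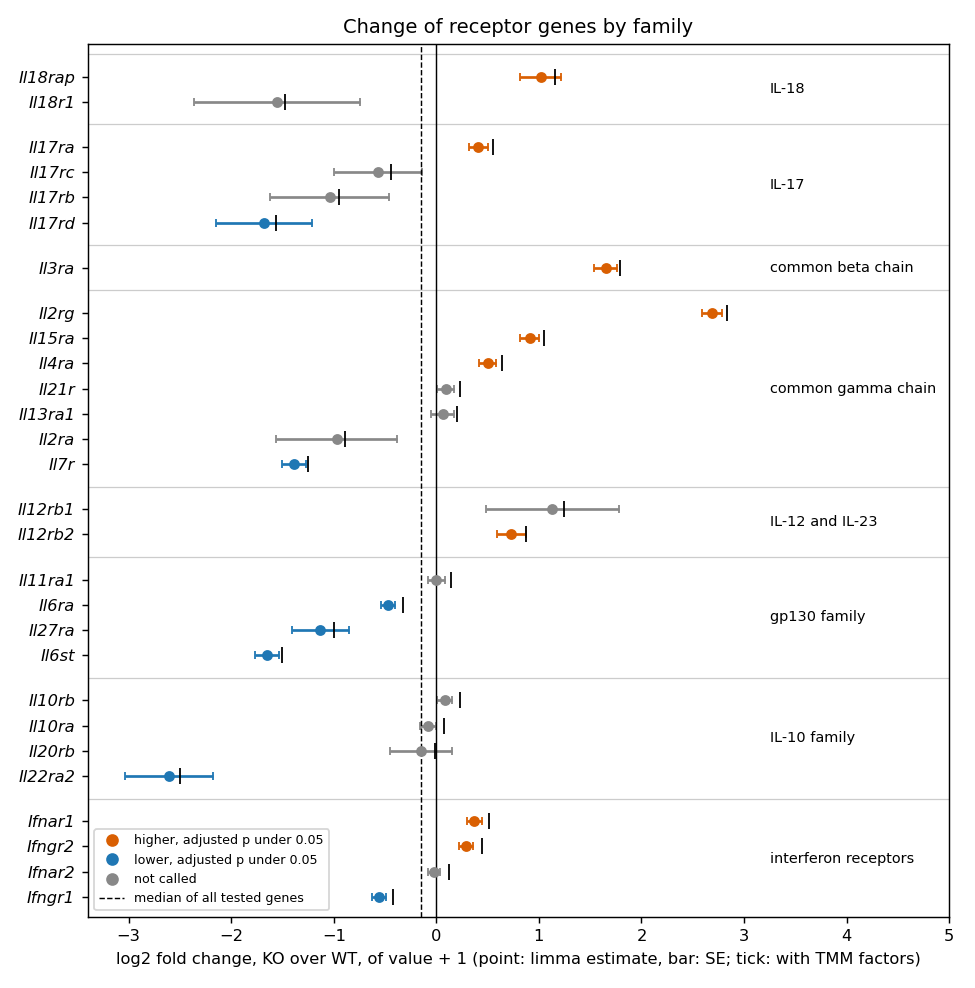
The plot of log2 fold changes (horizontal axis, KO over WT, of value + 1) groups the 28 tested genes by receptor family. Points and bars are limma estimates and standard errors, black ticks the estimates with TMM factors, and the dashed line the median of all tested genes at -0.15. Il2rg lies farthest to the right at 2.69 and Il22ra2 farthest to the left at -2.61.

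Levels between genes were compared per kilobase of the listed transcript. In the libraries labelled WT, Ifngr1 stood first with a mean of 11695 normalised reads per kilobase (range 11350 to 11918) and Il10ra second with 10893 (10427 to 11126). These ranges did not overlap, but they cover no error in the listed length, 2099 bases for Ifngr1 and 3485 for Il10ra. Before division by length Il10ra was the higher, with 37961 normalised reads against 24547. Per kilobase, Il21r followed with 2774 and Il6ra with 2393. Then came Il10rb at 2163, Ifnar2 at 1880, Il6st at 1747, Il13ra1 at 1704, Ifngr2 at 1610 and Il4ra at 1490. Within this run Il13ra1 spread from 1463 to 1892 and overlapped Ifnar2, Il6st, Ifngr2 and Il4ra. Ifngr2 and Il4ra also overlapped. In the libraries labelled KO, Il10ra stood first with 10348 (9687 to 11010) and Ifngr1 second with 7924 (7613 to 8292). Il6st went from rank 7 to rank 13 of 28, Il6ra from 4 to 9, Il4ra from 10 to 5 and Il2rg from 16 to 12. In KO the ranges of these genes overlapped those of neighbours in rank. Il4ra (2063 to 2125) overlapped Il10rb (2104 to 2397) and Ifngr2 (1918 to 2084), Il6ra overlapped Il13ra1, and Il6st overlapped Il2rg. At the low end, 6 tested genes had a mean of 10 normalised reads or fewer, and 10 further genes were under the level tested.

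**Figure D2:**
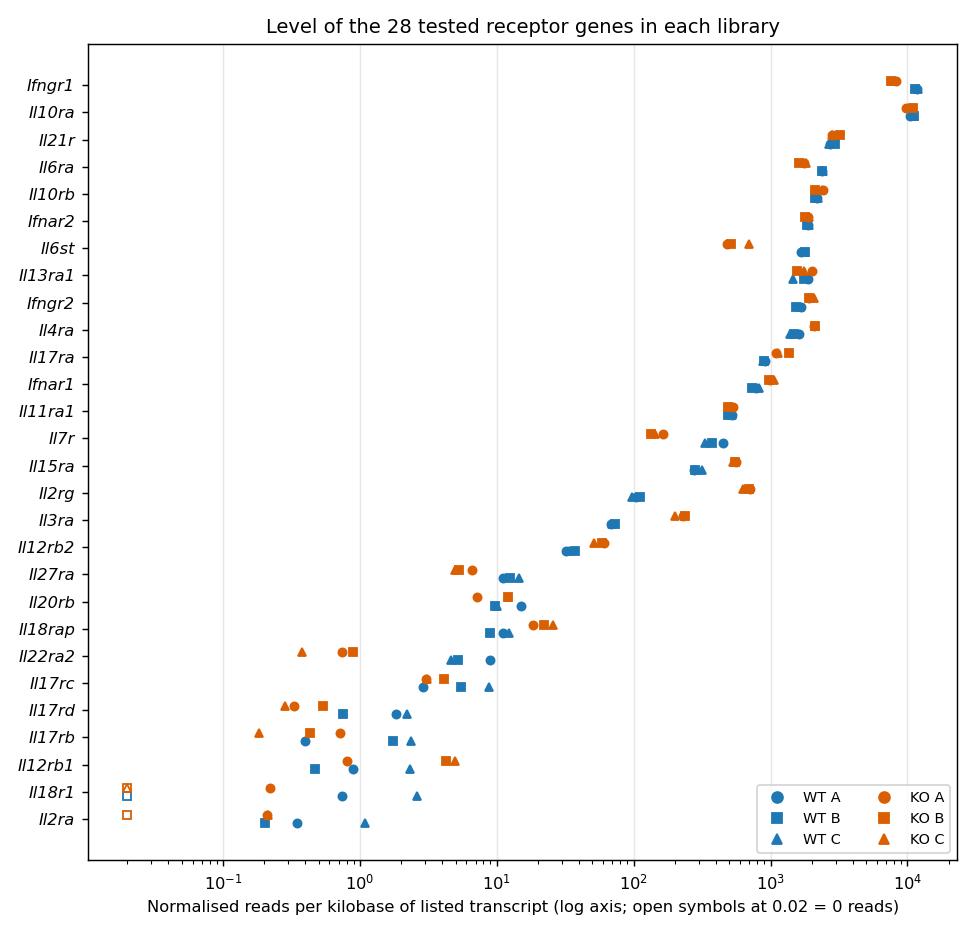
The plot of levels gives normalised reads per kilobase of transcript (horizontal log axis) for each tested gene in each of the 6 libraries, ordered by the WT mean, with WT in blue and KO in orange. The 3 libraries of a group lie close together for genes above 100 per kilobase, and spread widely below 10.

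The type I interferon receptor is made of IFNAR1, which binds the kinase TYK2, and IFNAR2, which binds JAK1 and holds the ligand most tightly. Ifnar1 (chromosome 16, 91485238 to 91507441, plus strand, GRCm38) had 3055, 2862 and 3212 normalised reads in WT A, B and C and 3850, 3760 and 4151 in KO A, B and C. Every KO library lay above every WT library. This was a 1.29-fold rise, 0.37 on the log2 scale (SE 0.07, limma adjusted p = 0.00332). Ifnar2 had 5717, 5584 and 5788 in WT and 5680, 5425 and 5767 in KO. Its groups overlapped, and it did not pass, at -0.02 on the log2 scale (SE 0.06, adjusted p = 0.852) with the deposited scaling and 0.12 with TMM factors. Among the ligands measured, Ifnb1, the interferon beta gene, rose from 3.87 ± 3.79 to 58.4 ± 5.31 (SD, n = 3 each, log2 fold change 4.08, SE 0.65), whereas Ifna2, Ifna4, Ifna5 and Ifne had 0 reads in all libraries.

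The promoters of both chains hold the letters TTCNNNGAA, known as the gamma-activated sequence, and are shown because 1 of the pair rose. The window ran from 250 bases before to 50 bases after the transcript start (RefSeq, GRCm38.p6). Sequences read 5' to 3' on the gene's strand, with the matching letters in capitals.

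Ifnar1 (chr16:91484965-91485264, plus strand): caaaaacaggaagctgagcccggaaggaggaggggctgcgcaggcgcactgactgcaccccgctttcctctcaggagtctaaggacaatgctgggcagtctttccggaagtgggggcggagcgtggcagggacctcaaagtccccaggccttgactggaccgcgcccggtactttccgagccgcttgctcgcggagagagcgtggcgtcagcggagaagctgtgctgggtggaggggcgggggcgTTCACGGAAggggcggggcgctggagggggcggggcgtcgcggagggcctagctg

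Ifnar2 (chr16:91372533-91372832, plus strand): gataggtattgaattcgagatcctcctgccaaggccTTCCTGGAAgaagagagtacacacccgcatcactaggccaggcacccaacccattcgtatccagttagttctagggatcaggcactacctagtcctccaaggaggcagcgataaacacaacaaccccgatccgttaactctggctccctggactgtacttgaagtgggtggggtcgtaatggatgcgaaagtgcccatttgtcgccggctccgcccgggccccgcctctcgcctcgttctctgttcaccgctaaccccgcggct

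The match begins 5 bases before the start in Ifnar1 and 214 bases before it in Ifnar2. Of the 38 members, 31 had a promoter in the table, and 6 of them (19.4%) held TTCNNNGAA on either strand in at least 1 promoter: Ifnar1, Ifnar2, Il12rb2, Il7r, Il18r1 and Il31ra. The letters read the same on both strands. The share was 9.55% over 27025 genes and 8.30% over 32851 promoters. The interferon-stimulated response element core, GAAA followed after any 2 bases by GAAA, was found on neither strand in any of the 31, and in 3.99% of all genes. Ifnar1 and Il12rb2 rose, Il7r fell, Ifnar2 and Il18r1 did not pass and Il31ra was under the level tested. Any part of the letters in these changes was not tested. The promoters of Il7r, which fell, and Il12rb2, which rose more than Ifnar1, are shown next.

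Il7r (chr15:9529827-9530126, minus strand): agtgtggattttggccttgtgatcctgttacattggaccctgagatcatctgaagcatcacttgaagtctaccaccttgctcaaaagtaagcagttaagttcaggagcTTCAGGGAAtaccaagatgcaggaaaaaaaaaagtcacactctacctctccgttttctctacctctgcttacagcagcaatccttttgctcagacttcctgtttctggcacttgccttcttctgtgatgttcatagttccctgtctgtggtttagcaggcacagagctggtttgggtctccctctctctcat

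Il12rb2 (chr6:67376139-67376438, minus strand): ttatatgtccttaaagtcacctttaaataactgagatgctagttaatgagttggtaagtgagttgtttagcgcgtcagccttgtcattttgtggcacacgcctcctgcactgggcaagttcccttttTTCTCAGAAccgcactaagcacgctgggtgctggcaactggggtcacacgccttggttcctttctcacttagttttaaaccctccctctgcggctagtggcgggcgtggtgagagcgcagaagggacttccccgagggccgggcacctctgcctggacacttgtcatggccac

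The interferon gamma receptor pairs the ligand-binding IFNGR1, which binds JAK1, with IFNGR2, which brings JAK2. The chains went in opposite directions. Ifngr1 (chromosome 10, 19591949 to 19610229, plus strand) had 24801, 23824 and 25015 normalised reads in WT and 17405, 15980 and 16513 in KO. All KO libraries lay below all WT libraries. The fall was 1.48-fold, or -0.56 on the log2 scale (SE 0.07, limma adjusted p = 0.000151). Ifngr2 had 6161, 5651 and 6030 in WT and 7086, 7107 and 7699 in KO, again without overlap. It rose 1.23-fold, with 0.29 on the log2 scale (SE 0.07, adjusted p = 0.00791). Both directions were the same with TMM factors (-0.42 and 0.44). Per kilobase, Ifngr1 was 7.27 times Ifngr2 in WT and 4.01 times in KO. The difference in the log2 ratio of the chains was -0.86 (two-sided exact permutation p = 0.1, the smallest possible with 3 against 3). Ifng, the ligand gene, had 0 reads in all libraries, which allows up to 1.34 to 1.81 normalised reads.

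Of the IL-10 receptor chains, Il10ra stood at nearly the same level in both groups, and the call of Il10rb depended on the scaling. Il10ra, the ligand-binding chain, had 36337, 38775 and 38769 normalised reads in WT and 33760, 38371 and 36057 in KO, with overlapping groups. The log2 fold change was -0.08 (SE 0.08, adjusted p = 0.502) and 0.07 with TMM factors. Il10rb, the chain shared with the IL-22 receptor, had 6033, 5859 and 6135 in WT and 6658, 5844 and 6642 in KO. It was 0.08 (SE 0.07, limma adjusted p = 0.408) with the deposited scaling and passed as higher with TMM factors, at 0.23 (adjusted p = 0.0445). It also passed by edgeR (0.22, adjusted p = 0.0408) and DESeq2 (0.23, adjusted p = 0.0172) on the recovered reads. In the authors' deposited table it was at 0.23 (adjusted p = 0.017). Il10 itself was low, 3.44 ± 4.95 and 8.02 ± 2.15 (SD, n = 3 each), and did not pass (adjusted p = 0.109).

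Il22ra2 encodes a soluble binding protein that neutralises IL-22. It had 22.3, 12.9 and 11.5 normalised reads in WT, behind which stood 44, 29 and 19 reads, and 1.83, 2.22 and 0.94 in KO, behind which stood 4, 4 and 2 reads. The KO values are close to the 3-read floor. The log2 difference was -2.61 (SE 0.43, limma adjusted p = 0.00101). Il20rb, a chain of the receptors for IL-19, IL-20 and IL-24, ranged from 27.1 to 42.0 in WT and from 20.1 to 33.8 in KO and did not pass. The epithelial receptor genes Il20ra and Il22ra1 had 0 reads in every library. Il22ra2 lies 11.8 kb from Ifngr1 on chromosome 10, and both fell.

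QKI is known to bind RNA at the core ACUAAC or ACUAAU, so the last 1000 bases of each listed transcript were searched for ACTAAC and ACTAAT on the RNA strand. They were found in 4 of 28 tested members (14.3%) and in 25.1% of 17311 transcripts of all tested genes with that length. Ifngr1, Ifnar2 and Il10rb held 1 each in the 3' untranslated region, and Il2rg held 1 before its 3' untranslated region. Of the 9 members called higher 1 held the core, and of the 7 called lower 1. The 3 untranslated sites are shown from the GENCODE M21 transcripts (GRCm38), with the core in capitals.

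Ifngr1 (chr10:19609768-19609797, plus strand): acattagctaatACTAACcacatagaatat

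Ifnar2 (chr16:91404620-91404649, plus strand): caccccctttccACTAATgcactaaggtgg

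Il10rb (chr16:91425227-91425256, plus strand): tgccatataaagACTAATaatttagggact

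Only the first belongs to a gene that was called at the deposited scaling, Ifngr1, which fell. A match of these letters is no measure of binding.

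In the gp130 family 3 of 4 tested members were lower and 0 higher, where 23.4% of all genes were lower and 11.3% higher. The counts were the same with TMM factors, where 15.0% of all genes were lower and 15.4% higher. Il6st (chromosome 13, 112464070 to 112510086, plus strand) encodes gp130, without which IL-6, IL-11, IL-27, oncostatin M and leukaemia inhibitory factor cannot signal. It had 14529, 15483 and 15301 normalised reads in WT and 4147, 4438 and 5999 in KO. The highest KO library stood far under the lowest WT library. The fall was 3.11-fold, with -1.65 on the log2 scale (SE 0.12, limma adjusted p = 3.09e-06). In the authors' deposited table it had a log2 fold change of -1.5 after rounding and was not on their list of 503 genes, whose smallest absolute value rounds to 1.5.

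Il6ra, the IL-6-binding chain that can also be shed as a soluble receptor, had 20542, 20454 and 20877 in WT and 15157, 13805 and 15660 in KO. It fell 1.39-fold (log2 fold change -0.47, SE 0.07, adjusted p = 0.000622) and was -0.33 with TMM factors. Because Il6st fell by more than Il6ra, the ratio of Il6ra to Il6st per kilobase went from 1.37 to 3.07. The log2 ratio differed by 1.18 (two-sided exact permutation p = 0.1, the smallest possible). Il27ra, the IL-27-binding chain, had 29.4, 32.9 and 38.6 in WT and 17.4, 13.9 and 13.1 in KO. It fell 2.27-fold (log2 fold change -1.13, SE 0.28, adjusted p = 0.0094), a change that had an adjusted p of 0.056 in the authors' deposited table. Il11ra1, the IL-11-binding chain, had 1037, 976 and 1036 in WT and 1049, 974 and 1027 in KO and did not pass (adjusted p = 1, log2 fold change 0.14 with TMM factors). Its near copy Il11ra2, listed on 3 rows of the table, had 0 reads in WT and 2 in KO in the row used. The counting of reads shared by the copies is not known here, which leaves both values uncertain. Il31ra, which lies 9.81 kb from Il6st on the other strand, had 4 reads over all libraries.

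Among the ligands and partner chains of gp130 some rose. Osm, the oncostatin M gene, rose from 3180 ± 545 to 15118 ± 742 normalised reads (SD, n = 3 each, log2 fold change 2.26, SE 0.11, adjusted p = 2.41e-07). Lif rose from 15.2 ± 10.6 to 240 ± 88.9 (4.01, SE 0.43). Lifr, the leukaemia inhibitory factor receptor chain that pairs with gp130, rose from 2988 ± 47.7 to 4027 ± 391 (0.43, SE 0.08, adjusted p = 0.00236). Il6 was 304 ± 21 and 303 ± 17.1, and Osmr, the second oncostatin M receptor chain, 13.1 ± 8.58 and 6.11 ± 0.955. Neither passed.

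**Figure D3:**
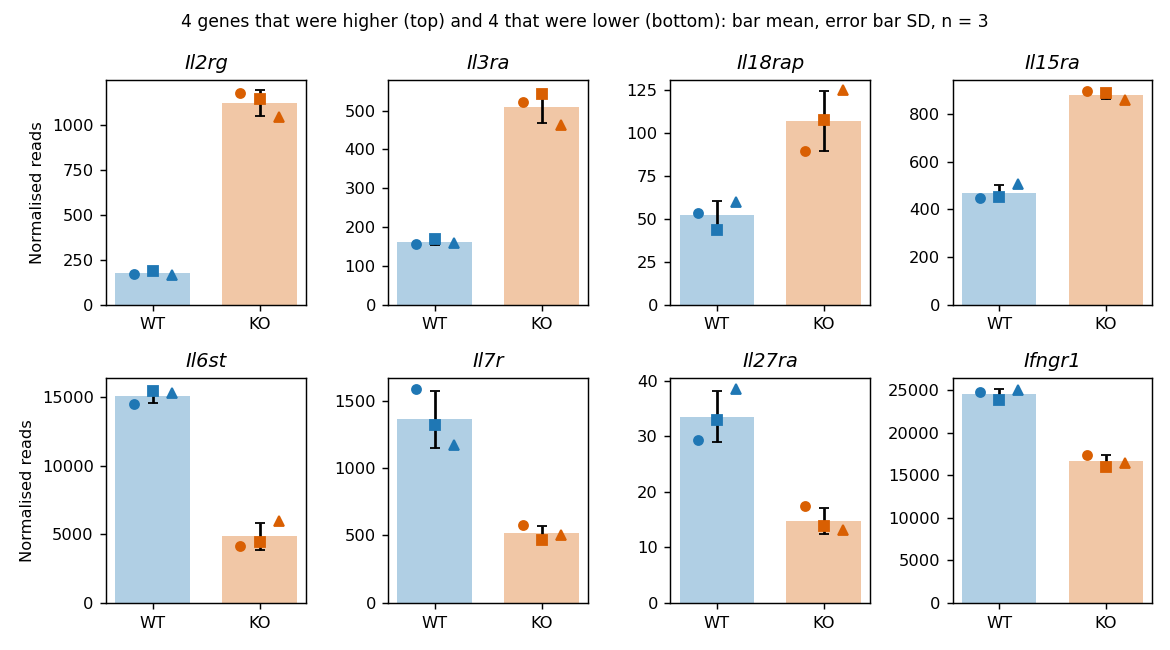
The bar plots give normalised reads (vertical axis from 0) for 4 genes that were higher in the libraries labelled KO (top) and 4 that were lower (bottom), with bars for means, error bars for SD (n = 3) and points for libraries A, B and C. In each of the 8 genes the points of the groups do not overlap.

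The common gamma chain gave the largest rise of any tested member. Il2rg (chromosome X, 101264378 to 101268255, minus strand), which pairs with JAK3 and is disrupted in X-linked severe combined immunodeficiency, had 172, 184 and 162 normalised reads in WT and 1175, 1143 and 1040 in KO. The lowest KO library stood far above the highest WT library. It rose 6.49-fold, 2.69 on the log2 scale (SE 0.10, limma adjusted p = 5.43e-08), and was 1 of 2 members on the authors' list. The ligand-specific chains that pair with it did not rise alike. Il4ra, which binds IL-4 and IL-13, had 8479, 7719 and 7200 in WT and 10800, 11116 and 11125 in KO, and rose 1.41-fold (log2 fold change 0.50, SE 0.08, adjusted p = 0.000536). Il21r, its neighbour 24.1 kb away on chromosome 7, had 6738, 7287 and 6627 in WT and 6967, 7970 and 7010 in KO. It overlapped between groups and did not pass (0.09, SE 0.08, adjusted p = 0.424). Il13ra1 is the partner of IL-4Ra in the IL-13 receptor and was paired here with Il4ra, not with Il2rg. It had 6982, 6487 and 5402 in WT and 7431, 5735 and 6472 in KO and did not pass (0.06, SE 0.11, adjusted p = 0.736).

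Il7r, the chain for IL-7 and, with CRLF2, for thymic stromal lymphopoietin (TSLP), fell. It had 1588, 1322 and 1173 normalised reads in WT and 579, 470 and 504 in KO, without overlap. The fall was 2.63-fold, with -1.39 on the log2 scale (SE 0.12, limma adjusted p = 1.15e-05). Per kilobase, Il7r was 3.70 times Il2rg in WT, and Il2rg was 4.60 times Il7r in KO. The log2 ratio of the chains differed by -4.08, the largest shift among the 15 receptor pairs compared (two-sided exact permutation p = 0.1, the smallest possible, 0.14 after adjustment over the pairs). Crlf2 rose from 1955 ± 366 to 3223 ± 332 (0.73, SE 0.12, adjusted p = 0.00112). Tslp, the ligand gene, fell from 41.7 ± 14.2 to 5.29 ± 2.15 (-2.78, SE 0.39, adjusted p = 0.000367). Il7 had 0.297 ± 0.514 in WT and 0 in KO, under the limit that a count of 0 allows.

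Il15ra presents IL-15 to cells that carry the beta and common gamma chains. It had 448, 451 and 505 normalised reads in WT and 894, 886 and 859 in KO, all KO libraries being higher. It rose 1.88-fold (log2 fold change 0.91, SE 0.09, adjusted p = 2.18e-05). Il15 had 661 ± 58.4 and 778 ± 24.8, a log2 fold change of 0.24 that did not pass (adjusted p = 0.0632) and that passed at 0.38 with TMM factors (adjusted p = 0.0108). Il2rb, the beta chain through which IL-2 and IL-15 signal, had 2 reads in WT A and 0 in the other libraries. Il2ra, the IL-2-specific chain, ranged from 0.89 to 4.82 in WT and from 0 to 0.94 in KO and did not pass. Il2ra and Il15ra lie 12.2 kb apart on chromosome 2. Il9r had 2 reads in all, and Il13ra2, a decoy receptor for IL-13, had 0.

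Il3ra, the IL-3-binding chain, was the other member on the authors' list. It had 156, 168 and 159 normalised reads in WT and 522, 544 and 463 in KO, without overlap. The rise was 3.16-fold, 1.65 on the log2 scale (SE 0.11, limma adjusted p = 1.86e-06). Csf2rb, the common beta chain, rose from 5016 ± 96.3 to 6977 ± 561 (0.47, SE 0.07, adjusted p = 0.000754). Its near copy Csf2rb2, the beta chain specific to IL-3 in mice, had 3980 ± 90.4 and 3617 ± 66.8 and did not pass (-0.14, adjusted p = 0.119), and the values of these copies are uncertain for the same reason. Il5ra, the IL-5-binding chain, had 3 reads in all, and Il3 had 0.

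The IL-12 and IL-23 receptors share IL-12Rb1. Il12rb1 was near the limit of detection, with 2.53, 1.34 and 6.63 normalised reads in WT and 2.29, 12.2 and 14.1 in KO. The groups overlapped and it did not pass (log2 fold change 1.13, SE 0.65, adjusted p = 0.213). Without library KO A it passed at 1.82 (limma adjusted p = 0.0367). With any other single library left out it did not pass (adjusted p = 0.102 to 0.505). Il12rb2, the signalling chain for IL-12, had 94.7, 110 and 99.5 in WT and 180, 173 and 153 in KO and rose 1.66-fold (0.73, SE 0.14, adjusted p = 0.00313). Il23r, its neighbour on chromosome 6 and the IL-23-specific chain, had 0 reads in every library. On the ligand side, Il12b, the p40 subunit of IL-12 and IL-23, rose from 7.11 ± 5.35 to 280 ± 60.4. Il23a, the p19 subunit, rose from 2.06 ± 1.48 to 8.58 ± 3.74 (1.70, SE 0.52, limma adjusted p = 0.0266). Behind this stood only 4, 8 and 1 reads in WT and 12, 23 and 16 in KO. Il12a, the p35 subunit of IL-12, was under the level tested, with 2 reads in WT A, 2 in KO B and 0 in the other libraries.

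Il18rap encodes the accessory chain of the IL-18 receptor. It had 53.7, 43.6 and 59.7 normalised reads in WT and 89.8, 108 and 125 in KO, without overlap, and rose 2.05-fold (log2 fold change 1.02, SE 0.20, adjusted p = 0.00302). Il18r1, the IL-18-binding chain 14.5 kb away on chromosome 1, had 6, 0 and 18 reads in WT and 2, 0 and 0 in KO, with a log2 fold change of -1.55 (SE 0.81) that did not pass (adjusted p = 0.17). It passed without library WT B, at -2.48 (limma adjusted p = 0.0209). Without WT A or any 1 of the KO libraries it did not pass (adjusted p = 0.16 to 0.32). Most of its WT reads were in WT C, without which it was under the level tested. Il18 was lower, 855 ± 79.6 against 658 ± 60.1 (-0.38, SE 0.10, adjusted p = 0.0148), a call lost with TMM factors (-0.24, adjusted p = 0.0859).

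Il17ra, the chain shared by receptors of the IL-17 family, had 7043, 6952 and 6796 normalised reads in WT and 8448, 10546 and 8799 in KO. It rose 1.34-fold without overlap (log2 fold change 0.41, SE 0.09, adjusted p = 0.00433). Its partners were scarce. Il17rc, the partner for IL-17A and IL-17F, had 6.58, 12.5 and 19.9 in WT and 6.87, 9.42 and 7.03 in KO, and Il17rb, the partner for IL-25, 1.01, 4.45 and 6.03 in WT and 1.83, 1.11 and 0.47 in KO. Neither passed. Il17rd, known also as Sef, an inhibitor of fibroblast growth factor signalling, had 15.2, 6.23 and 18.1 in WT and 2.75, 4.44 and 2.34 in KO. It was lower (-1.68, SE 0.47, adjusted p = 0.0182), a call lost without WT A, WT C or KO C (adjusted p = 0.065, 0.0616 and 0.0626) and with an adjusted p of 0.0725 in the authors' deposited table. Il17re had 3 reads in all.

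**Figure D4:**
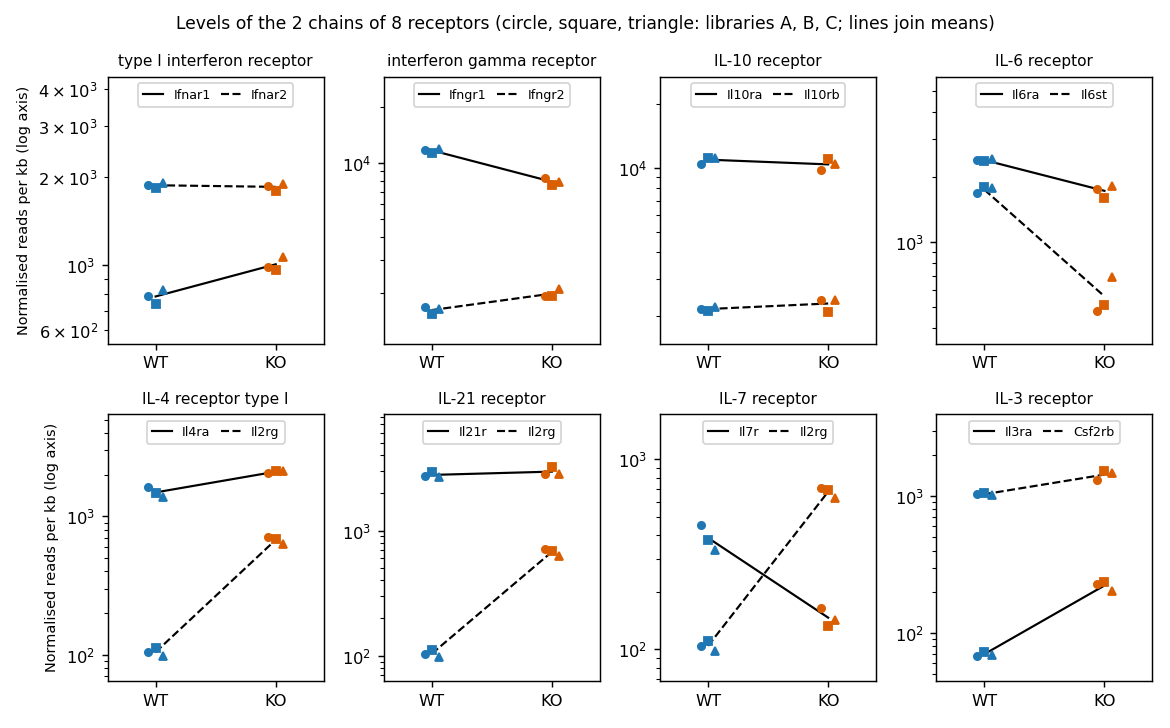
The panels give normalised reads per kilobase (vertical log axis, a different range in each) for the chains of 8 receptors in WT (blue) and KO (orange), with lines joining the group means. The lines run apart or together rather than in parallel for the interferon gamma, IL-6, IL-4, IL-21 and IL-3 receptors, cross for the IL-7 receptor, and stay nearly flat for the IL-10 receptor.

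Of 22 receptor pairs listed, 15 had both chains at a tested level. In 11 of these the ratio of the chains reached 0.1, the smallest p of an unpaired exact permutation test of 3 against 3 libraries. It was 0.14 after Benjamini-Hochberg adjustment over the 15, so no pair could pass 0.05 in this test. A p of 0.1 here means only that the ratios of the groups did not overlap. Taken singly, 47.9% of all tested genes did not overlap, and the share among other gene pairs was not measured. The pairs are not independent, as Il6st, Il2rg, Il4ra and Il17ra each stand in more than 1. The log2 ratio of the IL-10 receptor chains differed by -0.16 (exact permutation p = 0.3). Ratios with a chain of few reads moved with the pseudocount. The IL-12 receptor ratio differed by 0.40 at a pseudocount of 1, by 0.61 at 0.1 and by -0.01 at 5. At a pseudocount of 5 the IL-27 and IL-25 receptors also reached an exact permutation p of 0.1, and at 0.1 the IL-18 receptor was at an exact permutation p of 0.2.

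Several of the genes are neighbours on a chromosome. Both neighbours were called only for Ifngr1 and Il22ra2, which fell, and for Ifnar1 and Ifngr2, which rose. Il22ra2 had 4 reads or fewer in each KO library. Signs were opposite for Il18r1 and Il18rap (log2 fold changes -1.55 and 1.02) and for Il2ra and Il15ra (-0.97 and 0.91). Of these, Il18r1 and Il2ra were not called. On chromosome 16, Ifnar2, Il10rb, Ifnar1 and Ifngr2 lie in that order between 91372783 and 91565623. Their log2 fold changes were -0.02, 0.08, 0.37 and 0.29 with the deposited scaling and 0.12, 0.23, 0.51 and 0.44 with TMM factors.

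Genes downstream of the receptors were measured as lists, whose counts stand beside 11.3% of all genes called higher and 23.4% called lower. For the counts with TMM factors these shares were 15.4% and 15.0%. Of 4 Janus kinases, Tyk2 was higher (log2 fold change 0.22, adjusted p = 0.0372) and Jak1 lower (-0.22, adjusted p = 0.0357), while with TMM factors Tyk2 and Jak2 were higher (0.36 and 0.28) and Jak1, at -0.07, was not called. Among the STAT genes, Stat2, a factor of the type I interferon receptor, rose from 1941 ± 216 to 3879 ± 226 normalised reads (adjusted p = 1.51e-05, limma). Stat3, the main factor of gp130, was 6445 ± 220 and 5381 ± 511 (-0.26, adjusted p = 0.0263), and Stat5b, used by the common gamma and beta chains, 3115 ± 185 and 2587 ± 170 (-0.27, adjusted p = 0.0213). Stat3 and Stat5b were not called with TMM factors (-0.12 and -0.13).

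Of 17 feedback inhibitors 5 were higher and 3 lower, and with TMM factors 6 and 2. Usp18, which displaces JAK1 from IFNAR2, rose 7.14-fold, from 196 ± 4.49 to 1401 ± 153 (log2 fold change 2.83, SE 0.10). Cish, a target of STAT5, rose 2.31-fold (adjusted p = 0.00129). Socs5 and the phosphatase gene Ptpn1 fell (-0.61 and -0.44). Of 41 ligand genes 19 were tested, of which 6 were higher and 2 lower, and 17 had 0 reads in all libraries. Of 8 tested genes of other chains and binding proteins 3 were higher, Csf2rb, Crlf2 and Lifr, and 0 lower. Among 10 adaptors of IL-17 and IL-18 signalling 2 were higher, Nfkbiz (1.97, SE 0.15) and Zc3h12a (1.83, SE 0.19), and Myd88 lower (-0.29, SE 0.07). With TMM factors 4 were higher and 0 lower, and Myd88 was at -0.15 (adjusted p = 0.0999). Of 5 genes of receptor shedding and degradation, Adam17, the protease that sheds IL-6R, was lower (-0.67, SE 0.06, adjusted p = 2.12e-05) and Rhbdf2, its trafficking partner, higher (0.94, SE 0.12).

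Markers of lymphoid cells were read beside the genes best known from them, Il7r, Il2rg, Il2rb and Il18rap. Of 9 T cell markers Cd2 and Cd8a had 0 reads in all libraries, and Cd3d, Cd3e and Cd3g had 1, 3 and 2 reads over all libraries. The sum of the list, 44.6 to 69.9 normalised reads in WT and 93.7 to 101 in KO, was mostly Cd5, which rose from 31.5 ± 5.09 to 74.6 ± 5.40. Lck, the kinase of the T cell receptor, fell from 11.8 ± 2.11 to 3.45 ± 0.565. Of 7 NK cell markers Ncr1 and Gzma had 0, with a sum of 137 to 153 in WT and 17.2 to 18.8 in KO, most of it Klrd1. Of 6 B cell markers Pax5 had 0, with a sum of 853 to 954 and 523 to 736, most of it Cd79b, which was lower with the deposited scaling and not called with TMM factors. The part of these cells, and of the neutrophils, monocytes and border-associated macrophages above, in the receptor levels was not tested. Without library WT C, which held the most neutrophil RNA, 15 members were called, 9 higher and 6 lower, the missing call being that of Il17rd. Leaving out WT C does not remove the neutrophil difference. The summed markers were 5412 in WT A and 1899 in WT B, against 64.1 to 124 in KO.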

How the data were processed

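The deposited values are a read signal per gene and library, rescaled by the authors to 1 common column total. DESeq2 1.26.0, HOMER 4.11.1, STAR 2.7.1a and Trimmomatic 0.39 are listed in the submitters' processing notes, with mm10/GRCm38; parameters and use of strand are not given in the sources used here. The authors' deposited table also holds log2 fold changes and p-values of their own comparison. The lower values of each column, the only ones checked, were whole multiples of 1 step (100% within 0.1). Reads were therefore recovered by dividing every value by this step and rounding. Control columns were taken as WT and Treatment as KO; the letters A to C match no number in the labels. Deviations from the group means correlated at 0.61, 0.20 and 0.30 between same-lettered columns over 11588 genes, which meets the criterion set for pairing (each above 0.1). Between columns of different letters the correlations were -0.36 to 0.08. The reported tests use no pairing, because the letters are not in the labels, and so disregard a possible pairing of libraries. A fit with the letter as replicate block was an alternative.

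One row per symbol was kept (highest mean; 117 rows left out). Genes with a mean above 1 entered limma-trend (limma 3.58.1 under R 4.3.3), with log2(value + 1) as the response, which understates changes of low genes, with Benjamini-Hochberg adjustment over all genes; folds are ratios of group means. Chain ratios were compared by exact permutation. The test was also run on simulated counts in which a small set of genes was changed, up or down at random. That run cannot show how the scaling behaves when many genes differ, as they do here. Alternatives were edgeR 4.0.16 and DESeq2 1.42.0 on recovered reads, TMM factors, pseudocounts, filters, a replicate block and each library left out. Members and lists were chosen with earlier results of these data known; the QKI core search and the pseudocounts for chain ratios were chosen after seeing the data. Values per library are given for the interferon receptor chains, the shared chains, the 8 largest rises and falls among called members with a mean above 10, and their partner chains; other members are given by range, with low ones that were called or discussed given in full. Of other lists, the genes named have the smallest p or are partner chains or ligands of a named member. One gene of the downstream lists is not reported here.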

Additional observations from a re-analysis of the deposited data

How the results depend on the processing

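Over all genes 7781 were called, 6713 by edgeR, 7076 by DESeq2, 6830 with TMM factors and 6213 to 6747 with a library left out. The members called numbered 16, 17 by edgeR, DESeq2 and TMM, and 15 to 17 with a library left out; a log2 fold change of at least 1 left 8. The signs of Ifnar2, Il10ra and Il11ra1, which were not called, turned with the scaling, to 0.12, 0.06 and 0.14 by edgeR, 0.12, 0.07 and 0.14 by DESeq2 and 0.12, 0.07 and 0.14 with TMM factors; the scaling moves the median of all genes by the same order. Leaving out single libraries turned signs only among uncalled genes, with ranges of -0.04 to 0.01 for Ifnar2, -0.03 to 0.03 for Il11ra1, -0.05 to 0.15 for Il13ra1 and -0.27 to 0.09 for Il20rb. With the column letters as a replicate block 16 members were called, 9 higher and 7 lower, and 9378 genes in all; the block changed no member's call. Pseudocounts of 0.1 and 5 also left 16 members called, and the filter at a mean above 10 left 22 members to test. Depth limits the genes with a few reads per library, Il12rb1, Il17rb, Il17rc, Il17rd, Il18r1, Il22ra2 and Il2ra.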
